A study of Arabidopsis thaliana with 24 samples.

Results

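The 8 genes described here encode antimicrobial proteins of Arabidopsis: the plant defensins PDF1.1 (AT1G75830), PDF1.2 (AT5G44420), PDF1.2b (AT2G26020), PDF1.2c (AT5G44430), PDF1.3 (AT2G26010) and PDF1.4 (AT1G19610), the hevein-like protein HEL (AT3G04720) and the basic chitinase CHIB (AT3G12500). They were chosen by name, with earlier results of these data known, as the defensins of the PDF1 class and a pair of pathogenesis-related genes. They are 8 of the 27416 genes in the count table, and all 8 passed the filter on low counts that kept 20109 genes. RNA was sequenced from 6-day-old seedlings of Col-0, the wild type, and of jaz9-1, 1 T-DNA insertion line for JAZ9 in the Col-0 background. The treatments lasted 8 h and were mock, **2** (the phytotoxin coronatine), **2e** (a stereoisomer of **2**) and **12** (a derivative of **2**), and the series text gives a dose of 1 µM for the compounds. Each of the 8 groups had 3 libraries of 5 to 8 whole seedlings. The 24 libraries held 6226126 to 29404141 counts. Levels are given as CPM, counts scaled to the size of each library with TMM.

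Jasmonates are wound and defence hormones of plants, and coronatine is a bacterial mimic of the active form, jasmonoyl-isoleucine. The hormone joins the F-box protein COI1 to a JAZ repressor, the JAZ protein is degraded, and the transcription factors it held back are released. The response has a MYC branch, which serves wounding and insect defence, and an ERF/ORA branch, which also needs ethylene and serves defence against necrotrophic fungi. PDF1.2 is the usual marker of the ERF/ORA branch. Plant defensins are small cysteine-rich peptides that act on fungal membranes, HEL binds chitin, and CHIB cuts the chitin of fungal cell walls.

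Of the PDF1 genes, PDF1.2, PDF1.2b, PDF1.2c and PDF1.3 are close copies. PDF1.2 and PDF1.2c are neighbours on chromosome 5, and PDF1.3 and PDF1.2b are neighbours on chromosome 2. PDF1.1 and PDF1.4 lie apart on chromosome 1. The coding sequences of PDF1.1 and of the 4 copies are 243 bases long each in the RefSeq TAIR10.1 annotation. The 4 copies had between 91.4% identical bases (PDF1.2 and PDF1.3) and 94.7% (PDF1.2c and PDF1.3). The first 120 coding bases are shown because the results turn on telling these copies apart, with capitals at the bases that differ from PDF1.2.
PDF1.2: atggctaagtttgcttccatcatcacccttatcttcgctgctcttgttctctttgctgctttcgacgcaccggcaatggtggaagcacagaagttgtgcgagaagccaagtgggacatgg
PDF1.2c: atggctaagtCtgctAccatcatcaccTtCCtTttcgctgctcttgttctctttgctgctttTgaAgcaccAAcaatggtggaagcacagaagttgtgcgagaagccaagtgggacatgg
PDF1.2b: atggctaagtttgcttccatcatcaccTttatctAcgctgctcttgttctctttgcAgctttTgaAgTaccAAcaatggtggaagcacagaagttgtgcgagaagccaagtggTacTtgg
PDF1.3: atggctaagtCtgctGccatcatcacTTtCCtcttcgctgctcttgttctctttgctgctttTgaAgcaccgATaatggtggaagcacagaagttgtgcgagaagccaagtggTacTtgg
PDF1.1: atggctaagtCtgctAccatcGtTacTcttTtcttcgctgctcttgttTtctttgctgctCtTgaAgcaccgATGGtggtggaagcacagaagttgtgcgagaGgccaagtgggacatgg

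In this stretch PDF1.2c and PDF1.2b differed from PDF1.2 at 10 bases each, PDF1.3 at 12 and PDF1.1 at 15. Over the whole gene, intron included, every window of 100 bases, taken each 5 bases, occurred at a single place in the genome for all 8 genes. The spliced transcript was not searched this way, so no window spans the joint between exons. Among windows of 50 bases, 1 of 125 in PDF1.2, 5 of 127 in PDF1.2b and 5 of 135 in PDF1.3 occurred a second time, and none did in PDF1.2c. The counts take each read at its primary alignment, so a short read, or one with mismatches, could still be counted at another copy. The primers that the study used for PDF1.2 in quantitative PCR show how narrow the differences are. They are given 5′ to 3′ as designed, and then the best matching site of the forward primer in each other copy, with mismatched bases in capitals.
PDF1.2 forward: atgtcttcccagcacacaag
PDF1.2 reverse: gttactcatagagtgacagagac
site in PDF1.2b: atgtcttcccagcTcacaag
site in PDF1.2c: atgtcttcccagcTcacaaA
site in PDF1.3: atgtcttcccagcTcacaag

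The forward primer thus had 1 mismatch to PDF1.2b and to PDF1.3 and 2 to PDF1.2c, and the reverse primer had 3 to each of them. The primers listed for PDF1.3 (forward aaccttgagggggcaaaaca, reverse cacaccatgaagcaccaagtat) matched PDF1.3 without a mismatch. That forward primer had 1 mismatch to PDF1.2c, 2 to PDF1.2b and 3 to PDF1.2, and the reverse primer had 4, 10 and 5 in the same order.

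JAZ9 itself was checked first. In Col-0 its level was 4.24 ± 1.07 CPM with mock (SD, n = 3), 180 ± 9.59 with **2**, 21.9 ± 4.62 with **2e** and 17.5 ± 2.66 with **12**. In jaz9-1 it was 2.69 ± 0.802, 43.7 ± 7.58, 6.13 ± 1.19 and 6.45 ± 1.08 CPM. JAZ9 was called lower in jaz9-1 under each compound (log2 fold change -2.05 with **2**), and the mock groups overlapped (-0.65, FDR 0.256, edgeR). Reads were therefore still counted at JAZ9 in jaz9-1, and counts per gene do not show whether the transcript is intact.

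In the account that follows, a gene is called higher or lower below a Benjamini-Hochberg adjusted p (FDR) of 0.1 in the quasi-likelihood F-test of edgeR, adjusted over all 20109 genes. Fold changes are log2 values with their standard error. Whether libraries overlap is given as a description only, since the share of all genes without overlap was not counted. Of the jaz9-1 libraries with **2**, replicate 1 stood apart, with 89.8 CPM of HEL against 238 and 228 in the others, and values without it are given where a call changes. Since its HEL value singled it out, results for HEL without it are no separate support. Replicate 1 had the most counts of its group (17458833). Replicate 3 of that group had the fewest counts of all libraries (6226126) and the highest sum of 8 shoot markers, 57539 CPM against 46805 and 45716 in replicates 1 and 2. Without it, 3 members in place of 5 were called with **2** in jaz9-1. Nothing in the labels says that the 3 libraries of a group came from separate sowings, so the p-values measure only the spread between these libraries. In whole seedlings, fewer cells of a type cannot be told apart from less RNA per cell.

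In Col-0 seedlings the response of the 8 genes depended on the compound. With **2**, 5 of 8 members were called (4 higher, 1 lower), where 23.1% of all genes were called. With **2e**, 6 of 8 were called, all higher, against 2.75% of all genes, and with **12** again 6 of 8, all higher, against 3.05%. The median log2 fold change of the 8 was 1.28 with **2**, 3.47 with **2e** and 3.01 with **12**, and the median over all genes lay between -0.02 and 0.00 in these comparisons. PDF1.2, PDF1.2b, PDF1.2c and PDF1.3 rose with all 3 compounds, HEL rose with **2e** and **12**, and CHIB fell with **2** and rose with **2e** and **12**. PDF1.1 and PDF1.4 were not called with any compound. The 3 comparisons share the mock libraries.

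**Figure D1:**
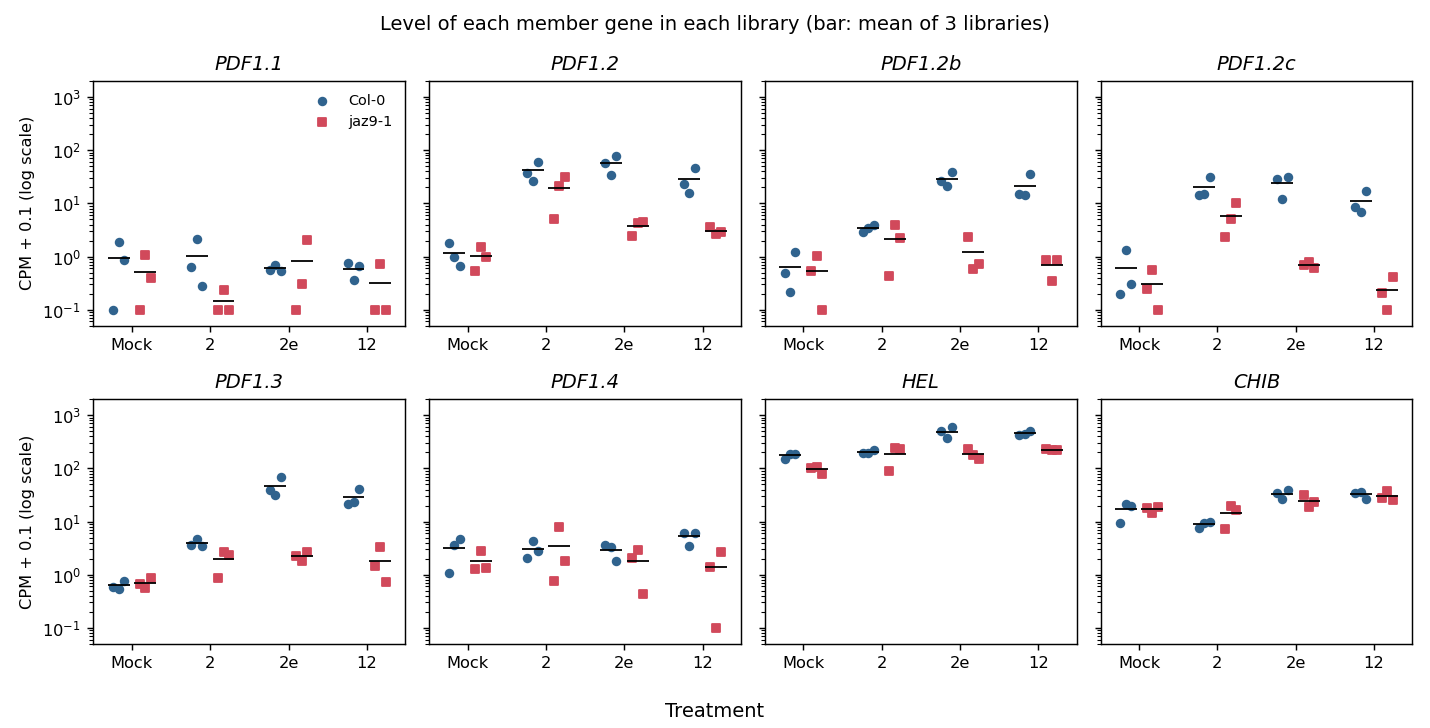
Level of each gene in each of the 24 libraries, as CPM + 0.1 on a log axis, by treatment (Col-0 circles, jaz9-1 squares, bar at the mean of 3 libraries). In Col-0, PDF1.3 and PDF1.2b sit at 2.77 to 4.59 CPM with **2** and at 14.4 to 69.5 CPM with **2e** or **12**, while HEL and CHIB move over a narrower range.

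The chromosome 5 copies rose with each compound. PDF1.2 had 1.72, 0.892 and 0.560 CPM in the Col-0 mock libraries. It had 37.8, 26.7 and 59.9 CPM with **2**, 58.0, 34.7 and 76.7 with **2e**, and 22.7, 15.6 and 46.5 with **12**. Every treated library lay above every mock library, and the treated groups overlapped each other. The log2 fold change of PDF1.2 was 5.40 ± 0.55 with **2** (FDR 1.66e-09), 5.84 ± 0.55 with **2e** (FDR 4.86e-09) and 4.83 ± 0.55 with **12** (FDR 2.56e-07).

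PDF1.2c had 0.0958, 1.23 and 0.204 CPM with mock, which rests on 1, 11 and 4 counts. Its level was 14.4, 15.1 and 31.1 CPM with **2**, 28.1, 12.1 and 31.7 with **2e** and 8.40, 6.75 and 17.2 with **12**. No treated library of PDF1.2c overlapped the mock group. The log2 fold change was 5.54 ± 0.62 with **2** (FDR 1.27e-08), 5.77 ± 0.62 with **2e** (FDR 8.22e-08) and 4.61 ± 0.63 with **12** (FDR 6.37e-06).

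The chromosome 2 copies rose less with **2** than with the other compounds. PDF1.3 had 0.479, 0.446 and 0.662 CPM with mock and 3.59, 4.59 and 3.33 with **2**. With **2e** its level was 38.3, 30.8 and 69.5 CPM, and with **12** it was 21.0, 23.3 and 41.7. All libraries with **2e** or **12** were above all libraries with **2**, which in turn were above all mock libraries. The log2 fold change of PDF1.3 was 2.74 ± 0.48 with **2** (FDR 4.58e-05), 6.36 ± 0.45 with **2e** (FDR 7.22e-12) and 5.66 ± 0.45 with **12** (FDR 1.14e-10).

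PDF1.2b followed the same order. Its level was 0.383, 0.112 and 1.12 CPM with mock, 2.77, 3.28 and 3.86 with **2**, 26.3, 21.0 and 38.3 with **2e**, and 14.6, 14.4 and 35.1 with **12**. The libraries of **2** lay between the mock libraries and those of **2e** and **12** without overlap. The log2 fold change of PDF1.2b was 2.34 ± 0.63 with **2** (FDR 0.00658), 5.45 ± 0.61 with **2e** (FDR 1.56e-07) and 5.03 ± 0.61 with **12** (FDR 6.61e-07).

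HEL, the chitin-binding member, had the highest CPM of the 8 in every group. It was also highest per kb of gene, intron included, at 131 CPM per kb in Col-0 mock. Whether counts scale with length in these libraries was not tested. It had 148, 186 and 190 CPM with mock and 198, 192 and 220 with **2**. With **2e** the level was 499, 372 and 595 CPM, and with **12** it was 422, 452 and 512. The libraries with **2** were just above the mock libraries, and HEL was not called there (log2 fold change 0.22 ± 0.20, 95% interval -0.20 to 0.63, FDR 0.556), except in a fit of the compared groups alone (FDR 0.0621). It was called higher with **2e** (1.48 ± 0.21, FDR 9.82e-06) and with **12** (1.4 ± 0.21, FDR 2.56e-05).

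CHIB had 9.29, 21.2 and 19.8 CPM with mock and 7.30, 9.46 and 9.63 with **2**. Its level was 33.9, 26.6 and 39.9 CPM with **2e** and 34.5, 35.4 and 26.7 with **12**. The lowest mock library lay within the range of **2**, and all libraries with **2e** or **12** lay above all mock libraries. CHIB fell by 0.94 on the log2 scale with **2** (SE 0.27, FDR 0.012), and rose by 0.99 ± 0.26 with **2e** (FDR 0.0336) and 0.94 ± 0.26 with **12** (FDR 0.0473). The rises of CHIB rested on single libraries. Without mock replicate 1 they were 0.70 (FDR 0.338) with **2e** and 0.65 (FDR 0.367) with **12**. The call with **2e** was also lost without **2e** replicate 3 (FDR 0.203), and that with **12** without **12** replicate 1 (FDR 0.164), without **12** replicate 2 (FDR 0.163) and with DESeq2 (adjusted p 0.117).

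PDF1.4, the most divergent defensin of the set, had 0.958 to 4.64 CPM with mock, 2.00 to 4.21 with **2**, 1.67 to 3.49 with **2e** and 3.41 to 6.10 with **12**. PDF1.1 had 0 to 1.78 CPM with mock and at most 2.06 CPM in any Col-0 library. The groups overlapped for both genes. The 95% intervals of the log2 fold change with **2e** ran from -1.60 to 1.27 for PDF1.4 and from -3.27 to 1.82 for PDF1.1. Changes of several-fold in PDF1.1 were thus not detectable with the spread between these libraries, which held 0, 16 and 15 counts with mock.

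**Figure D2:**
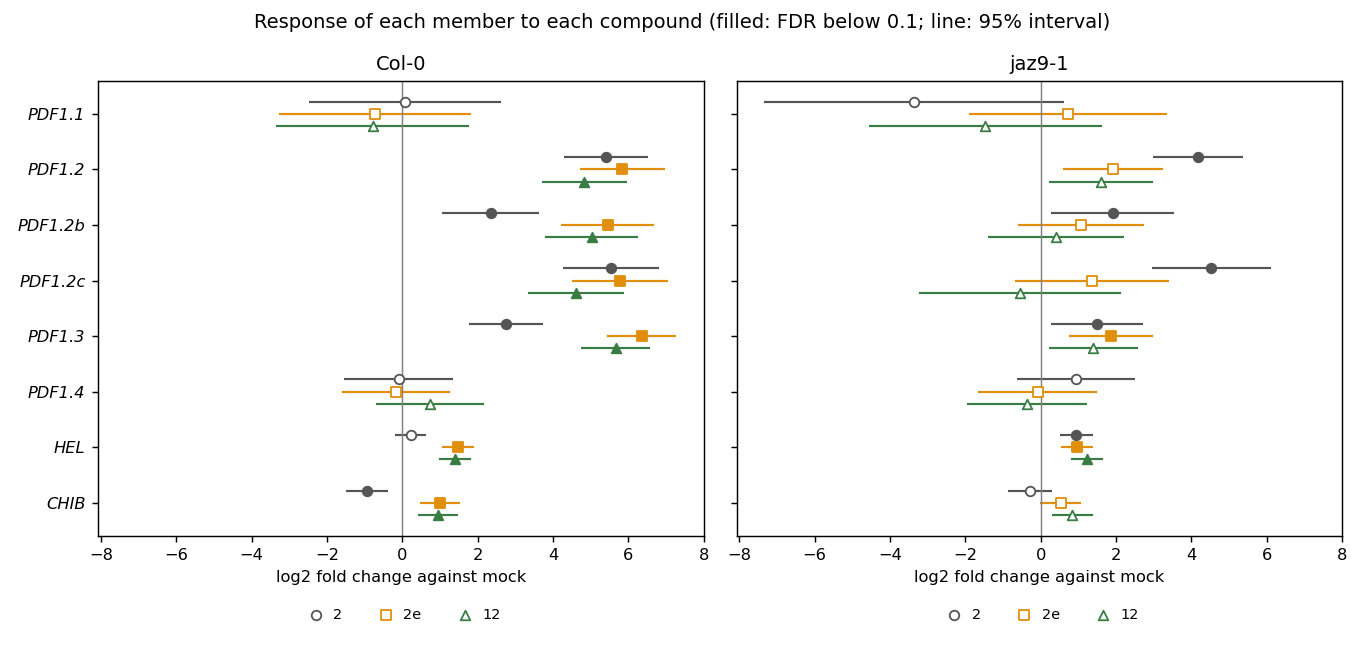
Log2 fold change against mock of each gene with **2** (circles), **2e** (squares) and **12** (triangles), in Col-0 and in jaz9-1, with the 95% interval as a line and filled symbols below an FDR of 0.1. In Col-0, PDF1.3 moves from 2.74 with **2** to 6.36 with **2e**, and CHIB lies at -0.94 with **2** and 0.99 with **2e**.

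Set directly against **2** at the same dose and time, **2e** and **12** gave the same 4 calls in Col-0. With **2e**, 4 of 8 members were called, where 17.5% of all genes were, and with **12** 4 of 8, where 16.9% were. Each of the 3 pairs of compounds was compared in both genotypes, which makes 6 comparisons, each adjusted over all genes. PDF1.3 was higher with **2e** than with **2** by 3.61 ± 0.35 (FDR 5.95e-10), PDF1.2b by 3.11 ± 0.49 (FDR 1.07e-05), CHIB by 1.93 ± 0.27 (FDR 1.19e-06) and HEL by 1.27 ± 0.21 (FDR 1.56e-05). With **12**, the differences from **2** were 2.92 ± 0.34 for PDF1.3, 2.69 ± 0.49 for PDF1.2b, 1.88 ± 0.27 for CHIB and 1.18 ± 0.20 for HEL, with FDRs of 3.72e-08, 8.76e-05, 1.83e-06 and 4.26e-05. PDF1.2 and PDF1.2c were not called between **2e** and **2**. The 95% interval of that difference was -0.33 to 1.21 for PDF1.2 and -0.61 to 1.08 for PDF1.2c, on the log2 scale.

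Between **12** and **2**, PDF1.2 differed by -0.57 (interval -1.35 to 0.21) and PDF1.2c by -0.92 (interval -1.79 to -0.06, FDR 0.181). Without **12** replicate 3 in Col-0, both were called lower with **12** than with **2**, PDF1.2 at -1.14 (FDR 0.0738) and PDF1.2c at -1.43 (FDR 0.0468).

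**Figure D3:**
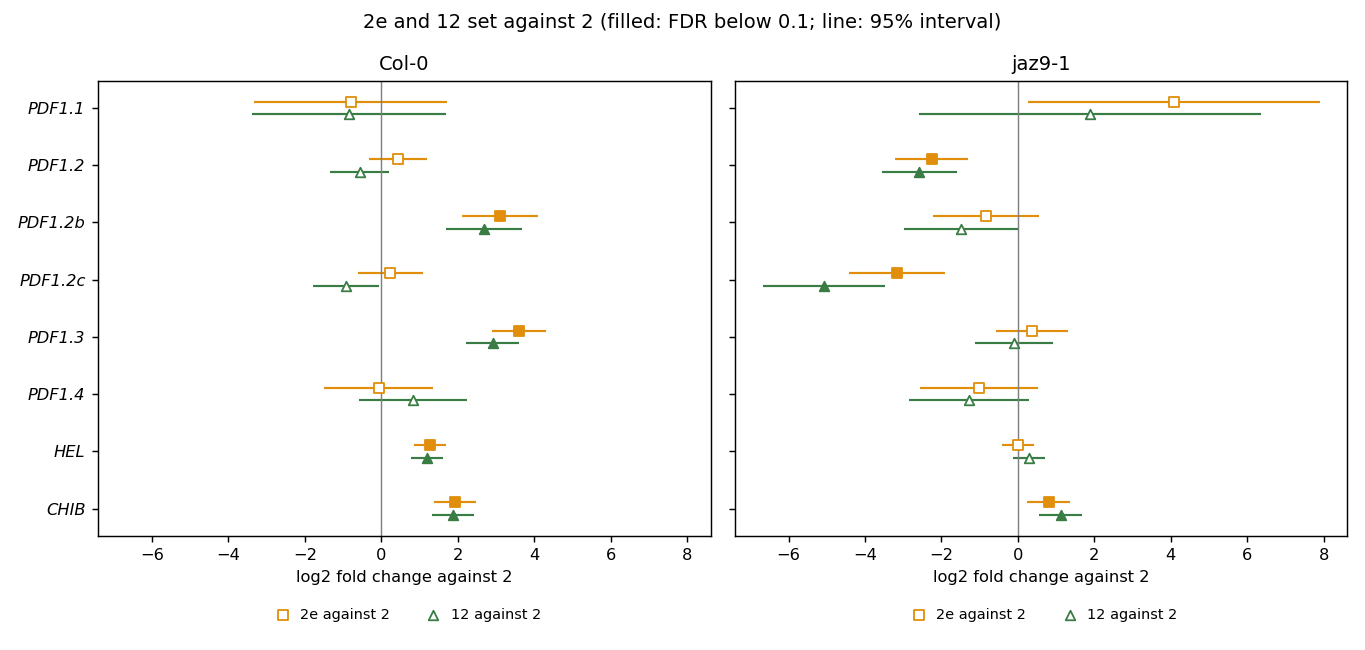
Log2 fold change of each gene with **2e** (squares) and **12** (triangles) against **2** in Col-0 and jaz9-1, with 95% intervals and filled symbols below an FDR of 0.1. In Col-0 the chromosome 2 copies PDF1.3 and PDF1.2b lie at 3.61 and 3.11 with **2e**, and the chromosome 5 copies PDF1.2 and PDF1.2c at 0.44 and 0.24.

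Between **2e** and **12** in Col-0 no member was called, and 0% of all genes were (0 of 20109 with edgeR, 9 with DESeq2). At an unadjusted p below 0.05, 3 of 8 members and 810 of all genes differed. PDF1.2, PDF1.2c and PDF1.3 had 1.01, 1.16 and 0.69 higher log2 levels with **2e**, with overlapping libraries and 95% intervals of 0.23 to 1.78, 0.29 to 2.02 and 0.08 to 1.3. For HEL the interval was -0.33 to 0.49 and for CHIB -0.46 to 0.56.

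The make-up of the 4 copies was also given as a share of their summed counts, which does not depend on the scaling of a library. The summed level was 2.64 ± 0.0766 CPM with mock in Col-0 (SD, n = 3), 68.8 ± 25.8 with **2**, 155 ± 59.0 with **2e** and 89.1 ± 44.7 with **12**. With **2**, the chromosome 2 copies PDF1.3 and PDF1.2b made up 10.9%, 15.8% and 7.32% of the counts of the 4 genes in the Col-0 libraries. With **2e** the shares were 42.9%, 52.6% and 49.9%, and with **12** they were 53.3%, 62.8% and 54.6%. The shares with **2** were below all shares with **2e** or **12**, and the exact (Clopper-Pearson) 95% intervals did not meet, with an upper bound of 19.2% for the highest library of **2** and a lower bound of 40.8% for the lowest library of **2e**. Such intervals cover counting error only, and they also failed to meet between libraries of the same group. With **2e**, replicate 1 had 40.8% to 44.9% and replicate 2 had 50.6% to 54.6%. The intervals thus do not measure the spread between libraries. In mock libraries the share ranged from 20.8% to 70% on 24 to 50 counts and was not placed against the treated groups. The intervals of mock replicate 2 (7.13% to 42.2%) and mock replicate 3 (55.4% to 82.1%) did not meet either.

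In jaz9-1 the shares were 13.3%, 19.4% and 9.58% with **2**, on 128 to 252 counts. They were 60%, 31.1% and 39.3% with **2e** and 37.4%, 57.4% and 30.5% with **12**, on 47 to 145 counts. The shares with **2** were again below all those with **2e** or **12**, but here the exact intervals met, with an upper bound of 24.9% for replicate 2 of **2** and lower bounds of 22.3% for **2e** replicate 2 and 19.2% for **12** replicate 3. The share was computed after the levels of the single genes were known, and no test was run on it.

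**Figure D4:**
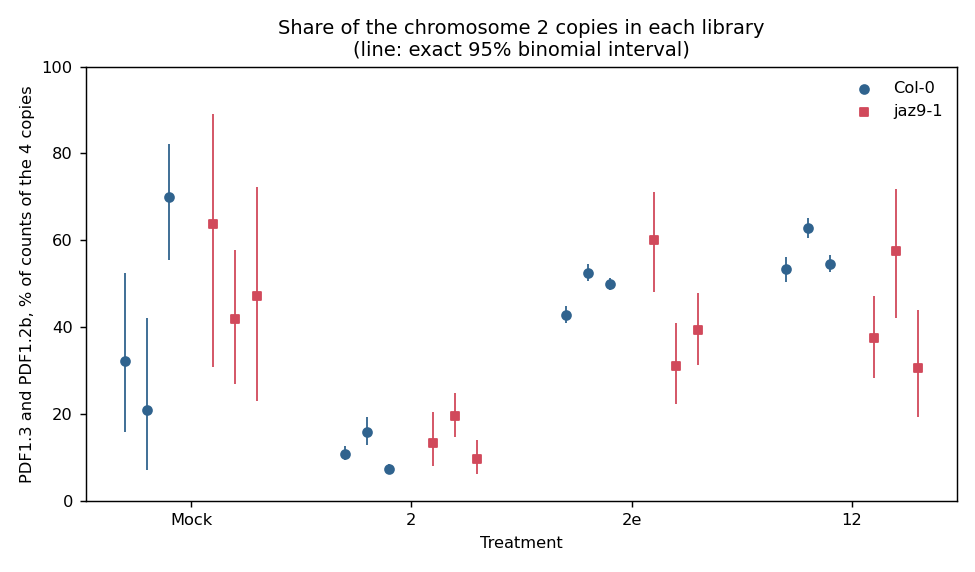
Share of PDF1.3 and PDF1.2b in the summed counts of PDF1.2, PDF1.2b, PDF1.2c and PDF1.3, in percent per library, with exact 95% binomial intervals (Col-0 circles, jaz9-1 squares). Libraries with **2** lie between 7.32% and 19.4%, and those with **2e** or **12** between 30.5% and 62.8%.

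In jaz9-1 seedlings, **2** gave more calls among the 8 genes than **2e** or **12** did. With **2**, 5 of 8 members were called, all higher, where 29.2% of all genes were called. With **2e**, 2 of 8 were called, against 1.97% of all genes, and with **12** 1 of 8, against 2.5%. The median log2 fold change of the 8 was 1.22, 1.02 and 0.63. HEL rose with all 3 compounds and was the member called with **12**.

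PDF1.2 in jaz9-1 had 0.434, 1.43 and 0.863 CPM with mock and 4.94, 21.3 and 31.2 with **2**. It had 2.33, 4.25 and 4.44 CPM with **2e** and 3.46, 2.54 and 2.84 with **12**. All treated libraries were above the mock libraries, and replicate 1 of **2** was far below replicates 2 and 3. The log2 fold change of PDF1.2 was 4.17 ± 0.59 with **2** (FDR 1.31e-06), 1.91 ± 0.65 with **2e** (FDR 0.198) and 1.59 ± 0.68 with **12** (FDR 0.354). PDF1.2 with **2e** was called with DESeq2 (adjusted p 0.0963) and without replicate 1 of **2** (FDR 0.054).

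PDF1.2c had 0.145, 0.451 and 0 CPM with mock, 2.27, 5.05 and 10.08 with **2**, 0.583, 0.698 and 0.506 with **2e** and 0.106, 0 and 0.308 with **12**. It rose with **2** (log2 fold change 4.52 ± 0.77, FDR 3.04e-05). With **12** its 3 libraries held 6 counts in all. The value against mock was 1.36 ± 1.00 with **2e** and -0.55 ± 1.31 with **12**, and neither was called.

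PDF1.3 in jaz9-1 had 0.579, 0.451 and 0.767 CPM with mock, 0.779, 2.59 and 2.28 with **2**, 2.14, 1.74 and 2.59 with **2e** and 1.38, 3.17 and 0.615 with **12**. Its log2 fold change was 1.49 ± 0.60 with **2** (FDR 0.0728), 1.87 ± 0.54 with **2e** (FDR 0.0919) and 1.39 ± 0.58 with **12** (FDR 0.339). Both calls were near the threshold. With **2** the call of PDF1.3 was lost without mock replicate 1 or 2 (FDRs 0.129 and 0.216) and without replicate 2 or 3 of **2** (0.310 and 0.177). With **2e** it was lost in 13 of the 24 fits that left out 1 library, namely each library of Col-0 mock, Col-0 **2**, jaz9-1 mock and jaz9-1 **2e**, and replicate 1 of jaz9-1 **12**, with FDRs up to 0.344.

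PDF1.2b had 0.434, 0.902 and 0 CPM with mock, 0.325, 3.76 and 2.09 with **2**, 2.23, 0.488 and 0.618 with **2e** and 0.745, 0.254 and 0.769 with **12**. The groups overlapped in every case. PDF1.2b was called higher with **2** (log2 fold change 1.91 ± 0.80, FDR 0.0867) and with neither of the others. That call of PDF1.2b was lost without mock replicate 1 (FDR 0.157) or 3 (0.286) and without replicate 2 (0.595) or 3 (0.156) of **2**.

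HEL had 103, 105 and 78.7 CPM in mock-treated jaz9-1, 89.8, 238 and 228 with **2**, 230, 176 and 151 with **2e** and 228, 224 and 221 with **12**. Replicate 1 of **2** lay within the mock range, and all other treated libraries were above it. The log2 fold change of HEL was 0.95 ± 0.21 with **2** (FDR 9.05e-04), 0.96 ± 0.21 with **2e** (FDR 0.00757) and 1.23 ± 0.21 with **12** (FDR 2.98e-04). Without replicate 1 of **2**, which was singled out by its HEL value, the change with **2** was 1.29 (FDR 3.83e-08).

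CHIB in jaz9-1 had 17.7, 14.4 and 18.8 CPM with mock and 7.15, 19.7 and 16.5 with **2**, which overlapped. It had 30.8, 18.97 and 23.5 CPM with **2e** and 28.1, 38.2 and 25.1 with **12**, all above the mock libraries. CHIB was not called against mock with **2** (-0.28 ± 0.28), with **2e** (0.53 ± 0.27, FDR 0.545) or with **12** (0.84 ± 0.27, FDR 0.126). With **12** the call of CHIB was made without Col-0 mock replicate 1 (FDR 0.0718), without replicate 1 (0.0376) or 2 (0.0872) of jaz9-1 **2**, and in a fit of the compared groups alone (0.0116). PDF1.4 ranged from 0 to 7.90 CPM over the jaz9-1 libraries and PDF1.1 from 0 to 1.97 CPM, with 6 of 12 PDF1.1 values at 0.

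Against **2** in jaz9-1, the chromosome 5 copies were lower with the other compounds. Called were 3 of 8 members with **2e**, where 25.5% of all genes were, and 3 of 8 with **12**, where 24.2% were. PDF1.2 was lower with **2e** at -2.26 ± 0.47 (FDR 4.82e-04) and with **12** at -2.58 ± 0.48 (FDR 1.51e-04). PDF1.2c was lower at -3.16 ± 0.62 with **2e** (FDR 2.57e-04) and -5.08 ± 0.79 with **12** (FDR 8.53e-06). CHIB was higher with **2e** by 0.80 ± 0.28 (FDR 0.0365) and with **12** by 1.12 ± 0.28 (FDR 0.0034). The CHIB call with **2e** was lost without replicate 1 of **2** (0.41, FDR 0.279), without **2e** replicate 1 (0.61, FDR 0.179) and in a fit of the compared groups alone (FDR 0.122). PDF1.3 did not differ by a called amount, with intervals of -0.58 to 1.32 for **2e** and -1.11 to 0.91 for **12** against **2**. Without replicate 1 of **2**, PDF1.2b was also called lower with **2e** (-1.56, FDR 0.0734) and with **12** (-2.22, FDR 0.0156), and PDF1.4 with **12** (-1.84, FDR 0.0808). Between **2e** and **12** in jaz9-1, no member was called and 0.0646% of all genes were (13 with edgeR, 10 with DESeq2). None of the 8 members and 1367 of all genes reached an unadjusted p below 0.05.

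Levels in jaz9-1 were then set against those in Col-0 under the same treatment. Under mock, 1 of 8 members was called, where 2.53% of all genes were. This was HEL, at 78.7 to 105 CPM in jaz9-1 and 148 to 190 in Col-0, a log2 difference of -0.87 ± 0.21 (FDR 0.0223). The HEL libraries of the mock groups did not overlap, and without jaz9-1 mock replicate 3 the difference was -0.75 (FDR 0.17). Mock levels of the 4 copies overlapped between the genotypes, with differences from -0.91 (PDF1.2c) to 0.08 (PDF1.3), none called.

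Under **2**, 2 of 8 members were called, both lower in jaz9-1, against 8.28% of all genes. They were PDF1.2 (-1.20 ± 0.41, FDR 0.0809, overlapping libraries) and PDF1.2c (-1.92 ± 0.47, FDR 0.013, no overlap). Both calls depended on the fit. With DESeq2 the adjusted p was 0.279 for PDF1.2 and 0.111 for PDF1.2c. PDF1.2 was lost without Col-0 replicate 1 (FDR 0.136) or 3 (0.348) and without jaz9-1 replicate 1 (0.24) or 2 (0.116), and PDF1.2c without Col-0 replicate 3 (0.123). Without jaz9-1 replicate 1 of **2**, CHIB was called higher in jaz9-1 (1.05, FDR 0.00886), where it was 0.67 ± 0.29 (FDR 0.191) with all libraries. PDF1.3 (-1.17, FDR 0.12) was called lower without jaz9-1 **2** replicate 2 (FDR 0.0859), **12** replicate 2 (0.0873) or **12** replicate 3 (0.0944). PDF1.1 held 1 count in the 3 jaz9-1 libraries with **2** and 39 in Col-0, and was not called (FDR 0.203).

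Under **2e** and **12** the genotypes stood far apart. With **2e**, 5 of 8 members were called, all lower in jaz9-1, against 3.35% of all genes, and with **12** 5 of 8, all lower, against 3.42%. The same members were called in both, PDF1.2, PDF1.2b, PDF1.2c, PDF1.3 and HEL. No library of jaz9-1 overlapped Col-0 for any of them, which is no separate support, since the share of all genes without overlap was not counted. For PDF1.3 the libraries held 1.74 to 2.59 CPM in jaz9-1 and 30.8 to 69.5 in Col-0 with **2e**, a log2 difference of -4.41 ± 0.37 (FDR 3.90e-09). With **12** the PDF1.3 difference was -4.19 ± 0.39 (FDR 3.12e-08). PDF1.2 differed by -3.90 ± 0.45 with **2e** (FDR 2.42e-06) and -3.22 ± 0.47 with **12** (FDR 6.28e-05). PDF1.2b differed by -4.79 ± 0.57 and -5.04 ± 0.61, and PDF1.2c by -5.32 ± 0.58 and -6.07 ± 0.73, with **2e** and **12** in that order. HEL differed by -1.40 ± 0.21 with **2e** (FDR 6.63e-05) and -1.04 ± 0.20 with **12** (FDR 0.00265). CHIB overlapped between the genotypes under both, with differences of -0.46 (95% interval -0.98 to 0.06) and -0.09 (-0.61 to 0.42). PDF1.4 under **12** did not overlap either and was not called (-1.91, FDR 0.229), except in a fit of the compared groups alone (FDR 0.0502) and without the count filter (FDR 0.00615). Each of these counts was 5 in all 24 fits that left out a library.

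**Figure D5:**
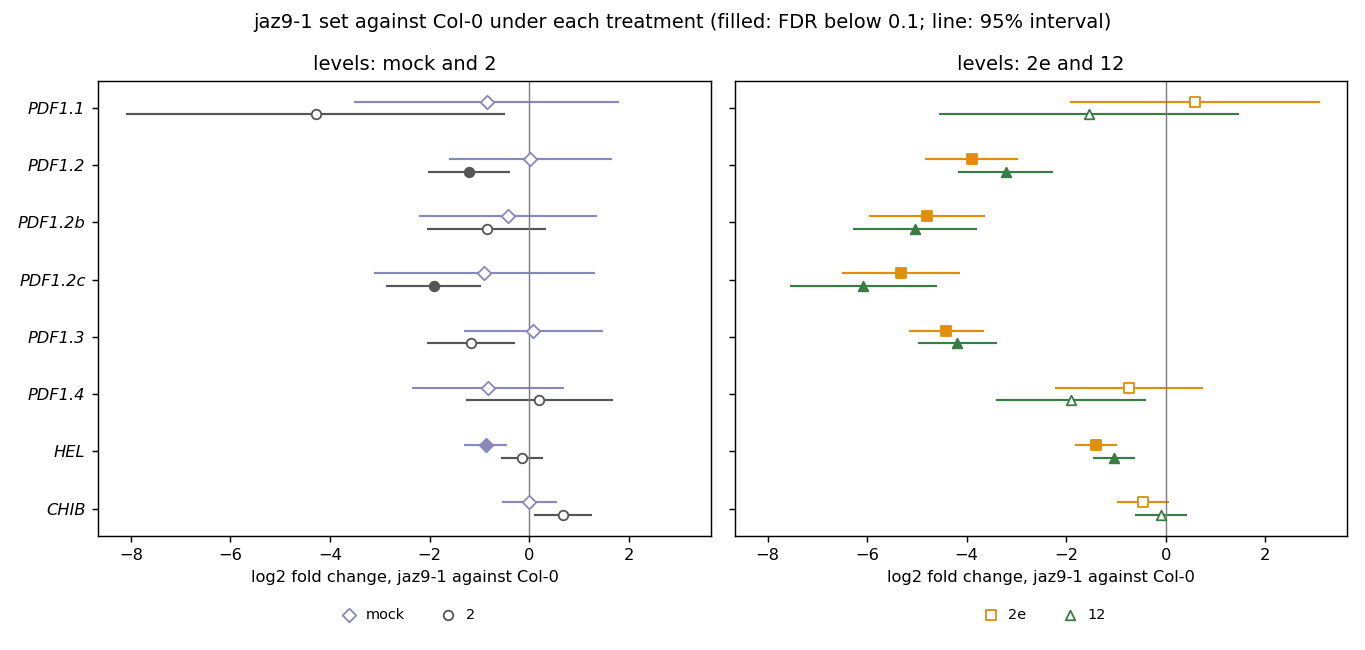
Log2 fold change of jaz9-1 against Col-0 for each gene under mock (diamonds) and **2** (circles) at left, and under **2e** (squares) and **12** (triangles) at right, with 95% intervals and filled symbols below an FDR of 0.1. Under **2e** and **12** the 4 copies lie between -3.22 and -6.07, and CHIB at -0.46 and -0.09.

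A difference in level between genotypes is not yet a difference in response, so the log2 fold change against mock in jaz9-1 minus that in Col-0 was tested in the same model. No member was called for any compound. For **2**, 0.741% of all genes were called (149 with edgeR, 290 with DESeq2), for **2e** 0% (0 and 10) and for **12** 0.00497% (1 and 21). Unadjusted p-values below 0.05 were reached by 1, 4 and 4 of the 8 members, and by 2298, 871 and 1181 of all genes. The sizes for **2e** were -3.93 ± 0.98 for PDF1.2 (FDR 0.464), -4.37 ± 1.15 for PDF1.2b (FDR 0.533), -4.41 ± 1.5 for PDF1.2c (FDR 1) and -4.49 ± 0.84 for PDF1.3 (FDR 0.104). For **12** they were -3.24 ± 0.98, -4.62 ± 1.18, -5.17 ± 1.64 and -4.27 ± 0.85 in the same order, with an FDR of 0.106 for PDF1.3. HEL gave -0.52 ± 0.29 with **2e** and -0.17 ± 0.29 with **12**, and CHIB -0.46 ± 0.37 and -0.10 ± 0.37.

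The PDF1.3 values lay just above the threshold, and the call changed with the fit. With DESeq2 the adjusted p of PDF1.3 was 4.90e-04 for **2e** and 0.00168 for **12**, and that of PDF1.2 was 0.0615 for **2e**. In fits of the compared groups alone, the FDR of PDF1.3 was 0.0143 for **2e** and 0.00933 for **12**, that of PDF1.2 was 0.0223 and 0.0358, and that of PDF1.2b was 0.0567 for **12**. The mock levels on which these differences rest are low, at 0 to 22 counts per library for each of the 4 copies. Left-out libraries also moved the call of PDF1.3, which was made in 9 of 24 such fits for **2e** and 13 of 24 for **12**, with FDRs from 0.0194 to 0.484 and from 0.0192 to 0.432. Without replicate 1 of jaz9-1 **2**, PDF1.2 was called for **2e** (-3.93, FDR 0.0666). PDF1.3 was called in that fit for **2e** (FDR 0.045) and for **12** (FDR 0.048).

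For **2**, the response of HEL was larger in jaz9-1 by 0.73 ± 0.29 (p 0.0181 unadjusted, FDR 0.322). Without replicate 1 of jaz9-1 **2**, the library singled out by its HEL value, HEL was called (1.07, FDR 0.00219). That call of HEL is therefore no separate support. CHIB was called as well (1.05, FDR 0.0918).

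The upstream sequences of the members were searched for the GCC box (GCCGCC on either strand), which ERF factors bind, and the G-box (CACGTG, its own reverse complement), which MYC factors bind. In the 500 bases before the annotated start, 3 of 8 members held a GCC box, PDF1.2, PDF1.2b and HEL, against 4.13% of 27561 protein-coding genes. No member held a G-box, which 9.31% of those genes did. The 3 stretches with the box are given from RefSeq TAIR10.1 in the direction of transcription, with the box in capitals.
PDF1.2: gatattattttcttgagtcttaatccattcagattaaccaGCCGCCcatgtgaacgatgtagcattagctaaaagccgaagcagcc
PDF1.2b: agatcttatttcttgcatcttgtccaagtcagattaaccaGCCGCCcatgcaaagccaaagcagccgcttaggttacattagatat
HEL: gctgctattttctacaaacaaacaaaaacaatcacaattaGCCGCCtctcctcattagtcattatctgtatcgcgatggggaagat

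The box began 222 bases before the start in PDF1.2, 143 in PDF1.2b and 388 in HEL. PDF1.2 on chromosome 5 and PDF1.2b on chromosome 2 shared an unbroken run of 22 bases around it, tcagattaaccaGCCGCCcatg. The other 5 members lack these letters in this window, which says nothing of other windows or other forms of the site.

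Regulators of the ERF/ORA branch were followed as a list of 16, of which 14 could be tested. In Col-0, 2 were called higher and 1 lower with **2**, 5 higher with **2e** and 4 higher with **12**, where 23.1%, 2.75% and 3.05% of all genes were called. The count with **2** is near that background. ORA59, the activator that binds the PDF1.2 promoter, had 6.80 to 9.26 CPM with mock, 7.55 to 15.8 with **2**, 44.6 to 61.3 with **2e** and 50.7 to 78.4 with **12**. ORA59 rose by 2.83 ± 0.30 with **2e** (FDR 4.35e-08) and 2.98 ± 0.30 with **12** (FDR 1.77e-08). In jaz9-1 ORA59 rose by 1.4 ± 0.30 and 1.46 ± 0.30, and its log2 difference from Col-0 was -1.37 with **2e** and -1.45 with **12**, both called. ERF1, which acts in the ethylene response, stayed at or below 2.77 CPM and was not called in any comparison. ERF2 rose by 2.07 with **2e** and 2.1 with **12** in Col-0, ERF15 by 1.05 with **2** and 0.89 with **2e**, and WRKY33, a regulator of defence against necrotrophs, by 1.28 with **2e**. Under **2**, EIN3 rose by 0.43 and EIL1, its close homologue, fell (-0.42).

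Of 6 genes known to restrain this branch, 4 were higher and 1 lower with **2** in Col-0, and 2 were higher with **2e** and with **12**, beside the same 23.1%, 2.75% and 3.05% of all genes. MYC2, the main factor of the opposing MYC branch, rose by 3.75 ± 0.13 with **2**, 1.39 ± 0.13 with **2e** and 1.15 ± 0.13 with **12**. In jaz9-1 the MYC2 values were 3.39, 1.42 and 1.29. The repressor ERF4 rose by 0.93 with **2** and 1.21 with **2e** in Col-0, and ERF9 fell with **2** (-1.58, FDR 1.19e-04). GRX480, a glutaredoxin, rose with **2** (3.43 ± 0.88).

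Other antimicrobial genes did not all move with the members. Of 9 other defensins, 5 could be tested. In Col-0, 2 fell with **2** and none was called with **2e** or **12**, beside the shares of all genes given above. PDF2.1 fell most, at -3.75 ± 0.48 with **2** (FDR 2.06e-07). Of 15 other chitinases, 14 were tested. With **2** in Col-0, 2 of them rose and 6 fell, where 23.1% of all genes were called (2392 higher and 2258 lower). AT1G02360 was at -1.99, AT2G43620 at -2.55, CHIC at -1.34 and AT2G43610 at 1.07. With **2e** 1 of the 14 rose, AT2G43590 (1.90 ± 0.20), and 1 fell, CTL1 (-0.30 ± 0.07), where 2.75% of all genes were called. With **12** the same genes moved by 1.72 and -0.32, where 3.05% of all genes were called.

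Among 5 further antifungal genes, AACT1, an agmatine acyltransferase, rose by 4.48 ± 0.36 with **2e** and 4.33 ± 0.36 with **12** and was not called with **2** in Col-0. AACT1 was lower in jaz9-1 than in Col-0, with log2 differences of -2.69 with **2e** and -2.64 with **12**. The thionin THI2.1 rose by 8.70 ± 0.79 with **2** and was not called with **2e** or **12**. PR2, the salicylate-associated glucanase, rose by 5.73 ± 0.52 with **2**, and no gene of the 3 salicylate markers was called with **2e** or **12** in Col-0. The median log2 fold change in Col-0 with **2e** was 0.55 for the 14 activators, 0.35 for the 6 repressors, 0.10 for the 14 chitinases and 1.04 for the 5 antifungal genes, against 0.00 for all genes. It was -0.17 for the 5 other defensins and -0.75 for the 3 salicylate markers.

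The likeness of the members was measured over the 24 libraries. Pearson correlations of log2 CPM (prior count 2) are given as descriptions, since the libraries share groups. The chromosome 5 copies had r = 0.93 with each other, and the chromosome 2 copies 0.91. Across the chromosomes, PDF1.2 had 0.83 with PDF1.2b and 0.81 with PDF1.3, and PDF1.2c had 0.82 and 0.75 with them. HEL correlated more with PDF1.2b (0.88) and PDF1.3 (0.88) than with PDF1.2 (0.71) or PDF1.2c (0.66). CHIB had r = 0.62 with HEL and 0.05 with PDF1.2. After the group means were removed, HEL and CHIB had r = 0.72 and HEL and PDF1.2b 0.74. The chromosome 5 copies then had 0.52 and the chromosome 2 copies 0.24, below the 0.37 of PDF1.2 with PDF1.2b and the 0.42 of PDF1.2b with PDF1.2c.

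Outside the set, the gene most like both PDF1.2 (r = 0.94) and PDF1.2c (0.91) was AT3G15356, a legume lectin family gene. AT3G16530, a lectin-like gene, was nearest to PDF1.3 (0.91) and HEL (0.89) and second for PDF1.2b (0.89, after UGT72E1 at 0.89). PLA2A, a patatin-like phospholipase, came second for PDF1.3 (0.90) and HEL (0.88). The gene nearest to CHIB was AT4G16260 (0.89). For PDF1.4 and PDF1.1 the best values were 0.78 (AT1G80290) and 0.69 (BRIZ1).

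Markers of the organs in a seedling were followed beside the members. The summed level of 12 root markers was 241 to 360 CPM in Col-0 mock and 826 to 1065 with **2**, and 303 to 448 and 734 to 1185 in jaz9-1. With **2** in Col-0, 1 of the 12 was called higher and 2 lower, where 23.1% of all genes were called. The rise was in AIR1 alone, and the other 11 summed to 120 to 145 CPM with mock and 103 to 105 with **2** in Col-0. With **2e** and **12** the sum of all 12 stayed at 225 to 330 CPM in Col-0. In jaz9-1 it was higher, at 335 to 580 CPM with **2e** and 378 to 477 with **12**. Without AIR1 the sums with **2e** overlapped, at 130 to 164 CPM in jaz9-1 and 124 to 145 in Col-0. With **12** they were 120 to 132 and 90.2 to 119 CPM. Higher in jaz9-1 than in Col-0 were 1 of the 12 under **2e** and 2 under **12**, where 3.35% and 3.42% of all genes were called. NRT2.1 was at 0 in 6 libraries and no other root marker was at 0. The 8 shoot markers summed to 41110 to 43361 CPM with mock, 41146 to 42232 with **2**, 38885 to 43831 with **2e** and 33029 to 37852 with **12** in Col-0. With **12** in Col-0, 4 of 8 were called lower, where 3.05% of all genes were called. In jaz9-1 they summed to 41303 to 42687 CPM with mock, 45716 to 57539 with **2**, 37122 to 40411 with **2e** and 39578 to 42845 with **12**. There 3 of 8 were called higher with **2** than with mock, where 29.2% of all genes were called, so this count is near that background. Against **2**, 5 of 8 were called lower with **2e** and 4 of 8 with **12**, where 25.5% and 24.2% of all genes were called. The part of organ composition in the results was not tested.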

How the data were processed

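Seedling RNA was measured in 24 libraries, and Lasy-Seq is given as the library method in the study's methods, with TruSeq also named in the labels. The deposited count values were made by the authors, who trimmed reads with Trimmomatic, aligned them with HISAT2 to TAIR10 (maximum intron 5000) and counted primary alignments per gene and strand with featureCounts (overlap of at least 0.5 of the read). A second table was not used, since its header names 24 columns and its rows hold 32 values.

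The tests used edgeR 4.0.16 under R 4.3.3, with filterByExpr by group, TMM, 1 coefficient per group over all 24 libraries, quasi-likelihood F-tests, and Benjamini-Hochberg adjustment over 20109 genes for each of 19 comparisons. The common biological coefficient of variation was 0.186. Genes below an FDR of 0.1 were called. Standard errors follow from the F statistic. CPM are TMM-scaled. Alternatives were RLE scaling, no count filter, DESeq2 1.42.0, fits of the compared groups alone, a replicate term, an FDR of 0.05 and leaving out each library. The scripts were checked on simulated counts into which known fold changes had been put. Sequences, gene lengths, neighbours and names came from RefSeq TAIR10.1, in which 26719 of 27416 identifiers matched. Chromosomes, upstream windows and distances to gene starts are those of TAIR10.1. No genome positions are printed, because the files use TAIR10. Coding identity was computed with Biopython 1.88.

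The members and lists were chosen with earlier results of these data known. The named genes are the 8 members, JAZ9, ORA59, ERF1, up to 4 called genes per list and comparison with the lowest FDR, and the 3 genes with the highest correlation to each member. AIR1 and NRT2.1, which are root markers, were named after their values were seen.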

Additional observations from a re-analysis of the deposited data

How the results depend on the processing

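No member changed direction in any fit in which it was called. RLE scaling gave the same number of called members in all 19 comparisons. Of the 267 calls among list genes, none changed sign and 265 remained with RLE. At an FDR of 0.05, 3 members were called with **2** in jaz9-1, 1 with **2e** in jaz9-1, and 1 between the genotypes under **2**. Without a count filter, 4 were called with **12** in jaz9-1, 4 between the genotypes under **2**, 2 between **2e** and **12** in Col-0, 6 for **12** against **2** in jaz9-1, and 1, 5 and 4 for the genotype difference in the response to **2**, **2e** and **12**. Between the genotypes under **12**, 6 members were called without a count filter and 6 in a fit of the compared groups alone. In fits of the compared groups alone, the counts were 3, 1 and 2 with **2**, **2e** and **12** in jaz9-1, 1 between the genotypes under **2**, and 2 and 3 for the genotype difference in the response to **2e** and **12**. Some members fell below the filter of such a fit and have no value there. With DESeq2, 0 members were called between the genotypes under **2**, and 2 and 1 for the genotype difference in the response to **2e** and **12**. The cause was not tested.

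Leaving out 1 library gave counts of 3 to 5 with **2**, 1 to 3 with **2e** and 1 to 2 with **12** in jaz9-1. Between the genotypes it gave 0 to 1 under mock and 0 to 3 under **2**. Against **2**, it gave 4 to 6 for **12** in Col-0 and 3 to 5 for **12** in jaz9-1, and for the genotype difference in the response 0 to 2, 0 to 2 and 0 to 1 with **2**, **2e** and **12**. In Col-0 it gave 5 with **2**, and 5 to 6 with **2e** and with **12**. With the replicate block, 3 of 19 counts changed: 3 between the genotypes under **2**, and 1 each for the genotype difference in the response to **2e** and **12**, PDF1.3 in each case (FDR 0.0963, 0.076 and 0.0587). Libraries of the same number in different groups did not deviate together over all tested genes (median r 0.003 over 84 pairs, from -0.05 to 0.06). Whether the numbers pair the libraries cannot be decided from this, since pairing that touches few genes would not show. Low counts, such as 0 to 22 per mock library for each of the 4 copies, limit the precision.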
